A study of Homo sapiens and Mus musculus with 160 samples.

Results

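The genes described here encode the machinery that carries new proteins into or across the membrane of the endoplasmic reticulum (ER), glycosylates them and folds them. They were chosen by name, from a list of 44 symbols that names subunits of the Sec61 translocon and its partners, the translocon-associated protein complex, the signal recognition particle (SRP) and its receptor, signal peptidase, oligosaccharyltransferase, and ER chaperones, lectins and disulfide isomerases. All 44 symbols were found among the 18165 human genes of the K562 tables and 43 among the 17985 mouse genes of the NIH-3T3 tables, where no row carried the symbol Srp54. The mouse tables list Srp54a, Srp54b and Srp54c instead, which the choice by name did not take in. K562 is a human chronic myelogenous leukaemia cell line and NIH-3T3 is a mouse embryonic fibroblast line. Both were untreated wild-type cells, with 50 samples per line (2 replicates of 5 labelling times and 5 fractions). The cells received 4-thiouridine, a uridine analog that enters new RNA, for 0, 15, 30, 60 or 120 minutes, and RNA of chromatin, nuclei, cytoplasm, polysomes and whole cells was sequenced after TimeLapse chemistry, which turns the analog into T-to-C mismatches. The deposited values are half-lives in minutes from a Bayesian fit to each time course, here the posterior mode with its 95% credible interval, given for replicate 1 and then replicate 2. The 60 samples with short hairpin RNAs were not analysed here.

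As background, a ribosome that makes a secreted or membrane protein is usually caught by SRP, a cytosolic particle of protein and RNA, when the signal sequence of the new chain emerges. SRP docks on its receptor at the ER membrane, and the chain enters the Sec61 channel while translation goes on, so that the mRNA itself is held at the ER by its ribosomes. Signal peptidase then removes the signal peptide, oligosaccharyltransferase adds N-linked glycans, and lectins, chaperones and disulfide isomerases fold the product. Tail-anchored proteins, such as the small Sec61 subunits, carry their only membrane segment at the end of the chain and are inserted after translation. SRP proteins are made on free ribosomes and are not inserted into the ER. The ER membrane is continuous with the outer membrane of the nuclear envelope. Of the 44 members, 38 were classed as membrane or lumen proteins (24 membrane, 14 lumen) and 6 as cytosolic SRP subunits, from textbook knowledge.

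A cleaved signal peptide is encoded at the start of the coding sequence, so that start is shown for examples of each targeting class, with high and low ratios of nuclear to cytoplasmic half-life. Each line gives the first 63 bases of the coding sequence on the mRNA strand, 5′ to 3′, from the GENCODE version 29 annotation of GRCh38 (hg38), with every adenine in capitals and the other bases in lower case. CANX, PDIA3, CALR, HSPA5 and SSR4 encode proteins with a cleaved signal peptide, of which SSR4 had a low ratio, and STT3A encodes a membrane protein without one. SEC61B and SEC61G encode tail-anchored proteins, and SRP9, SRP19 and SRP54 cytosolic subunits.
CANX: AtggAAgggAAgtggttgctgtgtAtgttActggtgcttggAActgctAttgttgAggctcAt
PDIA3: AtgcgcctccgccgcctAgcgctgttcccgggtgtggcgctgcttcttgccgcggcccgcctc
CALR: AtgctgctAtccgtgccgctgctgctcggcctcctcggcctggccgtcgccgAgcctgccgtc
HSPA5: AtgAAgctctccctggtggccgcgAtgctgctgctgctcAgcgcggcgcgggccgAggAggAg
SSR4: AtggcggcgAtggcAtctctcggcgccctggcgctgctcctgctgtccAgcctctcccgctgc
STT3A: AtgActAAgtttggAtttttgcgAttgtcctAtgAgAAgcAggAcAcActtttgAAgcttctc
SEC61B: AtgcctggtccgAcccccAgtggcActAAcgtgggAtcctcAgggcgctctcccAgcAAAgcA
SEC61G: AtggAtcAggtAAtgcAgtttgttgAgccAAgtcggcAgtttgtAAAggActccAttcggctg
SRP9: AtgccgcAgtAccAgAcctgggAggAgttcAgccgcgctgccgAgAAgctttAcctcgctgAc
SRP19: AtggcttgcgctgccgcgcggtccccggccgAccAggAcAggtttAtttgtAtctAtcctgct
SRP54: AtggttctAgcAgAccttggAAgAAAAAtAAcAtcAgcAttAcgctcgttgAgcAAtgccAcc

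The genes lie on chromosome 5, 179678628 to 179730925, plus strand (CANX), chromosome 15, 43746392 to 43773279, plus strand (PDIA3), chromosome 19, 12938578 to 12944489, plus strand (CALR), and chromosome 9, 125234853 to 125241330, minus strand (HSPA5). SSR4 lies on chromosome X, 153793516 to 153798505, plus strand. STT3A lies on chromosome 11, 125591712 to 125625215, plus strand, SEC61B on chromosome 9, 99222064 to 99230615, plus strand, and SEC61G on chromosome 7, 54752250 to 54759974, minus strand. SRP9 lies on chromosome 1, 225777813 to 225790466, plus strand, SRP19 on chromosome 5, 112861188 to 112898371, plus strand, and SRP54 on chromosome 14, 34981957 to 35029567, plus strand. All windows shown are exonic coding sequence. Adenine made up a median of 9.52% of the window in the 21 members with a cleaved signal peptide, from 3.17% in PDIA3 and SDF2L1 to 30.2% in DNAJB9. The median was 23.8% in the 15 membrane proteins without a cleaved signal peptide, 22.2% in the 2 tail-anchored ones and 19.0% in the 6 SRP subunits. Over the 17675 K562 genes with an annotated coding start it was 20.6%. The windows of the signal-peptide class were thus poor in adenine beside those of the other members, and PDIA3 has a single adenine beyond that of its start codon.

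The nuclear and cytoplasmic half-lives were compared first, since the labels separate these fractions and the named list splits into proteins made at the ER and proteins made in the cytosol. Messenger RNAs of membrane and lumen proteins had long half-lives in the nuclear fraction and short ones in the cytoplasmic fraction, in both lines, while the medians of the SRP subunits lay nearer to those of all genes. In K562, the 38 membrane or lumen members had a median nuclear half-life of 410 and 510 minutes and a median cytoplasmic half-life of 24 and 12 minutes. The 6 SRP members had medians of 130 and 195 minutes in the nucleus, against 140 and 95 minutes for the cytoplasmic fraction. All K562 genes had medians of 73 and 85 minutes in the nucleus, against 86 and 76 minutes for the cytoplasmic fraction. In NIH-3T3, the 38 membrane or lumen members had medians of 315 and 310 minutes in the nucleus, against 12 minutes in both replicates in the cytoplasm, and the 5 SRP members 120 and 110 minutes against 74 and 72 minutes. All NIH-3T3 genes had 77 minutes in both replicates in the nucleus, against 37 and 35 minutes for the cytoplasmic fraction. Half-lives above the last labelling time of 120 minutes reach beyond the times sampled and rest in part on the fitted model.

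In K562, 34 of 38 membrane or lumen members had a longer nuclear than cytoplasmic half-life by limma at an adjusted p under 0.05, a call made for 23.2% of 12276 genes. None of the 38 had a longer cytoplasmic half-life by limma, a call made for 25.2% of all genes. The same held at an unadjusted p under 0.05 (0 of 38, against 30.3% of genes). By credible intervals apart in both replicates it was also 0 of 38, against 26.4% of genes. The folds of the 34 ran from 2.20 to 352 with a median of 26.1, and their adjusted p-values from 0.00492 to 0.0254. Of the 6 SRP members, 1 was called longer in the nucleus (SRP54) and 1 longer in the cytoplasm (SRP19). In NIH-3T3, 34 of 38 were again called longer in the nucleus, where the background was 54.9% of 11837 genes, with folds from 4.08 to 343 and a median of 25.7. Of all genes called in NIH-3T3, 87.4% were longer in the nucleus, and 47.5% with columns centred on their medians, where the member count was 34 of 38 (27.2% of genes). Sec11c was the 1 member of the 38 called longer in the cytoplasm by limma, a call made for 7.91% of genes. By credible intervals apart in both replicates it was Ssr4 and not Sec11c (5.71% of genes). Among the 5 SRP members in NIH-3T3, Srp68, Srp14 and Srp72 were called longer in the nucleus and Srp9 longer in the cytoplasm. The nuclear and cytoplasmic values of a replicate stand in 1 table, so the replicate number pairs them. With that block in the fit, the calls were 31 of 38 and 1 and 1 of 6 in K562, where SEC11C, DNAJB9 and DNAJB11 dropped out, and 33 of 38 in NIH-3T3, where Sec61b dropped out. The blocked fit called 12.4% of all genes longer in the nucleus and 9.20% longer in the cytoplasm in K562, and 42.0% longer in the nucleus in NIH-3T3.

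The log2 ratio of nuclear to cytoplasmic half-life set the classes side by side on 1 scale. For single genes it is the mean of n = 2 replicates, given with its limma standard error (SE) and limma adjusted p. Both come from the fit without the replicate block, so they do not measure the spread between the 2 ratios of a gene. SEC11C in K562, for example, had ratios of 2.62 and 5.48 in replicates 1 and 2. In K562 its median was 4.13 for membrane or lumen members (3.43 and 5.04 in the replicates), -0.02 for SRP members (-0.42 and 0.53) and -0.11 for all genes. In NIH-3T3 the medians were 4.47 (4.69 and 4.49), 1.09 (1.02 and 1.15) and 0.96. The K562 replicates differed in 1 direction. Nuclear half-lives were higher in replicate 2 for 37 of the 38 membrane or lumen members (9758 of 13032 genes). Cytoplasmic ones were lower there for 32 of the 38 (7739 of 12276 genes). The size of the K562 ratio therefore depends on the replicate. The 90th percentile of all genes was passed by 32 of 38 membrane or lumen members in K562 and by 30 of 38 in NIH-3T3, and by no SRP member in either line. In K562, 33 and 32 of the 38 lay above every SRP member in replicates 1 and 2, and in NIH-3T3 31 and 33. Because the class sizes are small and fixed by function, these counts describe the members and carry no test. Whether the nuclear fraction held mRNA bound to the ER was not tested.

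**Figure D1:**
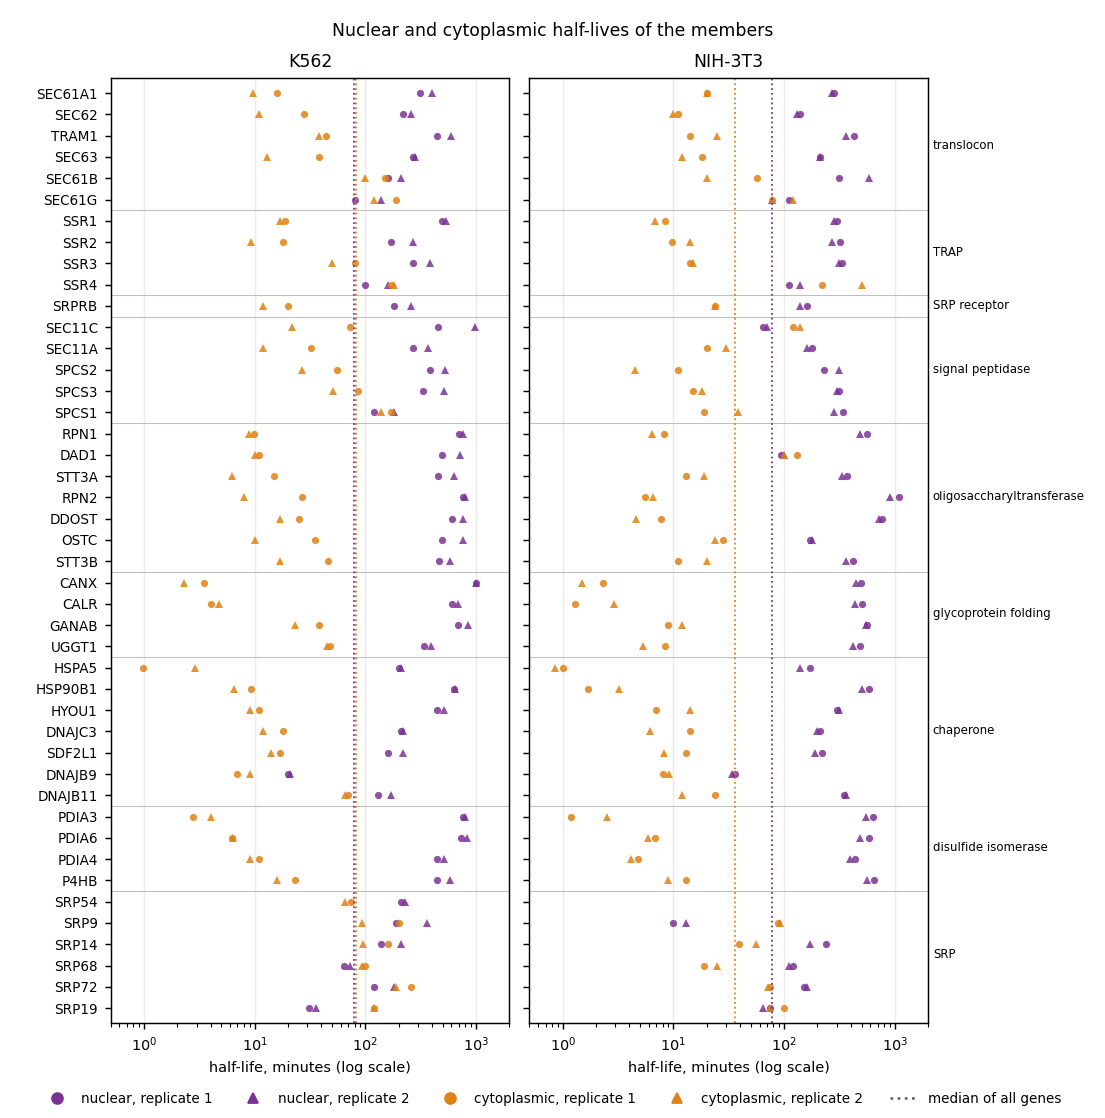
Nuclear (purple) and cytoplasmic (orange) half-lives in minutes on a log scale for each member in K562 and NIH-3T3, 1 point per replicate (circles replicate 1, triangles replicate 2), grouped by role and ordered by the K562 ratio within a role. Dotted lines mark the medians of all genes. Purple points lie to the right of orange points for most membrane and lumen members, by 286-fold and 435-fold for CANX in the K562 replicates, while both colours mix in the SRP rows.

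The SRP subunits were measured one by one. SRP9 and SRP14 form the domain that slows elongation. In K562, SRP9 had nuclear half-lives of 190 and 360 minutes and cytoplasmic ones of 200 and 93 minutes, and SRP14 had 140 and 210 minutes against 160 and 96 minutes. The order of the compartments differed between the replicates for both genes, and neither difference passed the test (SRP9 log2 0.94 ± 0.56 SE, limma adjusted p = 0.241, and SRP14 0.47 ± 0.38, adjusted p = 0.368). SRP54, the GTPase that binds the signal sequence, had 210 and 230 minutes in the nucleus, against 74 and 65 minutes for the cytoplasmic fraction (log2 1.66 ± 0.17, adjusted p = 0.00789). It was the only SRP subunit in K562 with both nuclear values above both cytoplasmic ones. SRP19, which helps SRP54 bind the SRP RNA, had 31 and 36 minutes in the nucleus, against 120 minutes in both replicates in the cytoplasm (log2 -1.84 ± 0.16, adjusted p = 0.00704). SRP68 had 64 and 73 minutes against 100 and 94 minutes, and SRP72, its partner, 120 and 180 minutes against 260 and 190 minutes. Both nuclear values lay below both cytoplasmic values for SRP68 and for SRP72, but the differences of -0.50 ± 0.16 (adjusted p = 0.0764) and -0.60 ± 0.31 (adjusted p = 0.196) did not pass.

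In NIH-3T3, Srp9 had the lowest ratio of all members, with 10 and 13 minutes in the nucleus, against 88 and 91 minutes for the cytoplasmic fraction (log2 -2.97 ± 0.18, adjusted p = 0.00207). Its ratio was lower than that of all but 0.904% of the genes tested. Srp14 had 240 and 170 minutes in the nucleus, against 39 and 56 minutes for the cytoplasmic fraction, and Srp68 had 120 and 110 minutes against 19 and 25 minutes. Both lay above the median ratio of all genes in that line, with log2 ratios of 2.11 ± 0.30 (adjusted p = 0.00984) and 2.40 ± 0.19 (adjusted p = 0.00307). Srp72 had 150 and 160 minutes against 74 and 72 minutes, a log2 ratio of 1.09 ± 0.11 (adjusted p = 0.00505), close to the all-gene median of 0.96. Srp19 had 74 and 65 minutes in the nucleus, against 100 and 74 minutes for the cytoplasmic fraction, and did not pass the test (adjusted p = 0.275). Outside the 5, Srp54a had nuclear values of 120 and 140 minutes against 57 and 37 minutes, Srp54b 150 minutes in both against 83 and 66 minutes, and Srp54c 83 and 66 minutes against 28 and 26 minutes. Nuclear values lay above cytoplasmic ones in all 3, as for SRP54 in K562, but reads that such similar genes share make the split between them uncertain. With columns centred on their medians, 1 of the 5 was called longer in the nucleus (27.2% of genes) and 2 longer in the cytoplasm (30.2%), and the value of Srp72 turned to -0.03.

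SRPRB is the membrane-anchored beta subunit of the SRP receptor. Its nuclear half-lives in K562 were 180 and 260 minutes and its cytoplasmic ones 20 and 12 minutes. In NIH-3T3 they were 160 and 140 minutes against 24 minutes in both replicates. The log2 ratios were 3.80 ± 0.37 (adjusted p = 0.00759) and 2.64 ± 0.13 (adjusted p = 0.00156). The first lay above every SRP subunit in K562 and near the membrane median of 4.03, and the second near those of Srp68 (2.40) and Srp14 (2.11) and below the membrane median of 4.03 in NIH-3T3.

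Within the translocon, the large channel subunit and the small tail-anchored subunits differed. SEC61A1, the channel itself, had the highest ratio of the 6 translocon genes in K562, with 310 and 400 minutes in the nucleus, against 16 and 9.6 minutes in the cytoplasm (log2 4.83 ± 0.34, adjusted p = 0.00593). SEC61G, a small subunit, had the lowest ratio in both lines, with 81 and 140 minutes against 190 and 120 minutes in K562 and 110 and 77 minutes against 77 and 120 minutes in NIH-3T3. Its compartments changed order between replicates, and neither line passed the test (log2 -0.50 ± 0.41, adjusted p = 0.371, and -0.06 ± 0.33, adjusted p = 0.881). SEC61B, the other tail-anchored subunit, had 160 and 210 minutes against 150 and 100 minutes in K562 (log2 0.58 ± 0.30, adjusted p = 0.192). In NIH-3T3 it had 310 and 580 minutes against 57 and 20 minutes (log2 3.65 ± 0.69, adjusted p = 0.0195), so that its groups overlapped in neither line but only the mouse difference passed, and it did not pass with the replicate block (adjusted p = 0.0501). SEC62 and SEC63, which serve chains that enter after translation, and TRAM1, a membrane partner of the channel, had log2 ratios between 3.63 and 3.77 in K562 and between 3.69 and 4.39 in NIH-3T3, where Tram1 was highest, and all 3 passed in both lines.

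The 4 subunits of the translocon-associated protein complex, which sits beside the channel, split in the same way in both lines. SSR1, SSR2 and SSR3 passed with log2 ratios of 4.84, 4.06 and 2.34 in K562 and 5.26, 4.65 and 4.46 in NIH-3T3. SSR4, the delta subunit, did not pass by limma in either, though its NIH-3T3 cytoplasmic interval lay above the nuclear one in both replicates. It had 100 and 160 minutes in the nucleus, against 170 and 180 minutes for the cytoplasmic fraction in K562 (log2 -0.47 ± 0.29, adjusted p = 0.262). In NIH-3T3 it had 110 and 140 minutes against 220 and 510 minutes (log2 -1.43 ± 0.50, adjusted p = 0.0811), the longest cytoplasmic half-life of any member there. SSR4 is made with a cleaved signal peptide, yet both of its nuclear values lay below both cytoplasmic values in each line.

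The 5 signal peptidase genes had log2 ratios from -0.07 to 4.05 in K562 and from -0.94 to 5.25 in NIH-3T3. SEC11A and SEC11C are its alternative catalytic subunits. SEC11A had 270 and 370 minutes against 32 and 12 minutes in K562 and 180 and 160 minutes against 20 and 30 minutes in NIH-3T3, and passed in both (log2 4.01 ± 0.58, adjusted p = 0.0141, and 2.79 ± 0.26, adjusted p = 0.00401). SEC11C had the highest ratio of the role in K562, with 450 and 980 minutes against 73 and 22 minutes (log2 4.05 ± 0.79, adjusted p = 0.0254). In NIH-3T3 it had the lowest, with 65 and 70 minutes against 120 and 140 minutes (log2 -0.94 ± 0.14, adjusted p = 0.0115). Its direction by limma was thus opposite in the lines, but its NIH-3T3 credible intervals were not apart in both replicates. SPCS1, a small accessory subunit, was lowest in K562, with 120 and 180 minutes against 170 and 140 minutes (log2 -0.07 ± 0.28, adjusted p = 0.853), but had 340 and 280 minutes against 19 and 38 minutes in NIH-3T3 (log2 3.52 ± 0.41, adjusted p = 0.00658). SPCS2 and SPCS3 passed in both lines, and Spcs2 was highest in NIH-3T3 with a log2 ratio of 5.25 ± 0.54.

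All 7 oligosaccharyltransferase subunits passed in K562. The highest was RPN1, a membrane subunit with a cleaved signal peptide, with 700 and 770 minutes in the nucleus, against 9.8 and 8.9 minutes in the cytoplasm (log2 6.30 ± 0.16, adjusted p = 0.00492). The lowest was STT3B, one of the alternative catalytic subunits, with 460 and 580 minutes against 46 and 17 minutes (log2 4.21 ± 0.57, adjusted p = 0.0129). In NIH-3T3 6 of the 7 passed. Rpn2 was highest there, with 1100 and 900 minutes against 5.5 and 6.6 minutes (log2 7.37 ± 0.18, adjusted p = 0.00125), and Dad1 lowest, with 94 and 100 minutes against 130 and 100 minutes (log2 -0.23 ± 0.18, adjusted p = 0.333). DAD1, a small subunit required for assembly of the enzyme, was near the top in K562, with 490 and 720 minutes against 11 and 10 minutes (log2 5.82 ± 0.26, adjusted p = 0.00494).

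The 4 genes of the calnexin cycle encode its lectins, a glucosidase subunit and its folding sensor, and all passed in both lines. CANX, the membrane lectin, had the highest ratio of all members in K562. Its nuclear half-life was 1000 minutes in both replicates (intervals 980 to 1000 and 1000 to 1100) and its cytoplasmic half-life 3.5 and 2.3 minutes (1.7 to 4.9 and 0.94 to 3.4), which gave a log2 ratio of 8.46 ± 0.27 (adjusted p = 0.00492). CALR, its soluble counterpart, had 610 and 690 minutes against 4 and 4.8 minutes (log2 7.21 ± 0.19). In NIH-3T3 the values were 490 and 450 minutes against 2.3 and 1.5 minutes for Canx and 510 and 440 minutes against 1.3 and 2.9 minutes for Calr, with log2 ratios of 7.98 ± 0.26 and 7.93 ± 0.47. All these cytoplasmic values are shorter than the first labelling time of 15 minutes, so they lie outside the times sampled and rest on the fitted model. The nuclear values lie beyond the last labelling time of 120 minutes and rest on the model in part as well. UGGT1, the folding sensor that re-glucosylates unfolded glycoproteins, was lowest of the role in K562 (340 and 390 minutes against 48 and 45 minutes, log2 2.97 ± 0.16, adjusted p = 0.00539). GANAB, the catalytic alpha subunit of glucosidase II, was lowest in NIH-3T3 (560 and 550 minutes against 8.9 and 12 minutes, log2 5.75 ± 0.20, adjusted p = 0.00125).

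All 7 chaperones and co-chaperones passed in both lines. HSPA5, the ER Hsp70 known as BiP, had the highest ratio of the role in K562, 200 and 210 minutes against 0.99 and 2.9 minutes (log2 6.92 ± 0.60, adjusted p = 0.00691). Its cytoplasmic half-life was the shortest of any member in both lines, at 1 and 0.86 minutes in NIH-3T3. HSP90B1, the ER Hsp90, was highest in NIH-3T3, with 590 and 510 minutes against 1.7 and 3.2 minutes (log2 7.88 ± 0.38, adjusted p = 0.00151). The lowest ratios belonged to Hsp40 partners of BiP. DNAJB11 had 130 and 170 minutes against 70 and 65 minutes in K562 (log2 1.14 ± 0.21, adjusted p = 0.0221), and Dnajb9 36 and 34 minutes against 8 and 9.2 minutes in NIH-3T3 (log2 2.03 ± 0.13, adjusted p = 0.00233). DNAJB9, an inducible co-chaperone, had the shortest nuclear half-life of the members in K562 (20 and 21 minutes), yet its cytoplasmic one was shorter still (7 and 9.1 minutes). HYOU1, SDF2L1 and DNAJC3 had log2 ratios from 3.60 to 5.57 in K562 and from 4.30 to 4.95 in NIH-3T3.

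The 4 disulfide isomerases, which form and rearrange disulfide bonds in the lumen, gave the highest median ratio of any role in K562, at 6.25, and 6.47 in NIH-3T3, below the 7.0 of the glycoprotein folding genes. PDIA3 was highest in both lines, with 760 and 790 minutes against 2.8 and 4 minutes in K562 (log2 7.86 ± 0.24) and 640 and 550 minutes against 1.2 and 2.5 minutes in NIH-3T3 (log2 8.42 ± 0.43, the highest of all members there). P4HB was lowest in both, with 440 and 580 minutes against 23 and 16 minutes and 650 and 560 minutes against 13 and 8.9 minutes (log2 4.72 ± 0.28 and 5.81 ± 0.25). Even this lowest isomerase lay above 98.4% of all genes in K562 and 98.6% in NIH-3T3.

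Sorted by how the protein reaches the membrane, the median log2 ratio in K562 was 5.05 for the 21 members with a cleaved signal peptide, 3.80 for the 15 membrane proteins without one and 0.04 for the 2 tail-anchored proteins, beside -0.02 for SRP. In NIH-3T3 the medians were 6.07, 3.78 and 1.79, beside 1.09. Lumen members had medians of 5.14 and 5.94 in the lines and membrane members 4.03 and 4.03. The ratios of the 43 members in both lines went together (Spearman's rho 0.741, Pearson's r 0.714), against 0.443 and 0.506 over 9087 paired genes. These are correlations across genes, which share libraries and fits and are not independent. Size moved with the ratio as well. In K562 the 11 membrane or lumen members with a coding length under 600 nt had a median log2 ratio of 2.63 (from -0.50 to 5.82) and the 27 longer ones 4.83 (from 1.14 to 8.46). Across the 38, rho between coding length and ratio was 0.518, and across 11901 genes with a coding start it was 0.0687. The adenine share of the coding start had a rho of -0.321 with the ratio across the 38, and -0.104 within the 21 with a signal peptide. The part of coding length and base composition in the class difference was not tested.

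**Figure D2:**
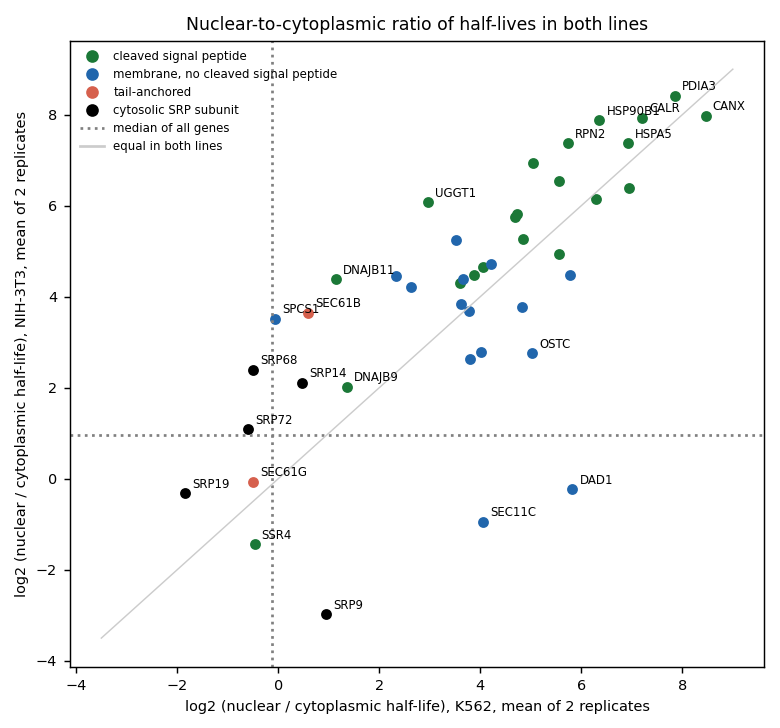
Log2 ratio of nuclear to cytoplasmic half-life in K562 (x axis) and NIH-3T3 (y axis), 1 point per member, mean of 2 replicates, coloured by targeting class. Dotted lines mark the medians of all genes (-0.11 and 0.96). CANX and PDIA3 stand at the upper right, SRP68, SRP72, SRP19, SEC61G and SSR4 left of the K562 median, and DAD1, SEC11C and SRP9 lie far below the line of equal ratio.

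Chromatin and export half-lives were both long beside those of all genes in K562. By its label, the export half-life is derived from the nuclear residence, so it is not a separate measurement of a long nuclear phase. For membrane or lumen members, the median chromatin half-life was 105 and 150 minutes (all genes 47 and 53) and the median nuclear export half-life, which the authors fitted without nuclear degradation, was 295 and 340 minutes (all genes 38 and 46). SRP members had 44 and 55.5 minutes on chromatin and 110 and 165 minutes for export. In K562, 33 of 38 membrane or lumen members lay above the all-gene median on chromatin, 37 for the nucleus and 37 for export, while 4 of 38 did for the cytoplasm and 8 for polysome loading. In NIH-3T3, 32, 36, 35, 4 and 4 of 38 did. CANX had the longest chromatin half-life in K562 (390 and 450 minutes, longer than 99.1% of genes) and the longest export half-life (670 and 610 minutes). DNAJB9 had the shortest of both, at 19 and 23 minutes and 6.4 and 6.5 minutes. In NIH-3T3, Rpn2 had the longest chromatin half-life (610 and 1300 minutes) and Srp9 the shortest (6.6 and 9.1 minutes).

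The NIH-3T3 export values of these genes did not repeat well. The median for membrane or lumen members was 155 minutes in replicate 1 and 43 minutes in replicate 2, and 39 of 43 members were lower in replicate 2. Rpn1 had 280 and 24 minutes, Rpn2 520 and 35 minutes, Pdia3 360 and 26 minutes and Hsp90b1 210 and 12 minutes. Their nuclear half-lives agreed more closely, for example 560 and 480 minutes for Rpn1, and their chromatin half-lives were longer in replicate 2 (320 and 550 minutes). The replicate 2 chromatin values exceeded the nuclear ones for Rpn1 (550 against 480 minutes), Rpn2 (1300 against 900), Pdia3 (590 against 550) and Hsp90b1 (630 against 510). Whether this bears on the export values derived from them was not tested. Of the 43 members, 19 differed by more than 3-fold between replicates for export, against 1 of 44 in K562. The median fold between replicates was 2.80 for membrane or lumen members and 1.57 for all genes. Sec61b, with 180 and 390 minutes, was the longest export half-life and Srp9, with 4.9 and 5.6 minutes, the shortest.

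Loading onto polysomes was fast and poorly resolved. Membrane or lumen members had median loading half-lives of 3.5 and 9.6 minutes in K562 and 4.6 minutes in both NIH-3T3 replicates, against 7.4 and 13 minutes and 10 and 9.8 minutes for all genes. HSPA5 was shortest in both lines, with 0.61 and 0.73 minutes and 0.97 and 0.99 minutes. At the other end, SRP19 in K562 (12 and 6900 minutes) and Srp9 in NIH-3T3 (6900 minutes in both) reached the upper bound of the fit, with modes outside the credible intervals of 56 to 3400 minutes, 5.8 to 590 minutes and 7 to 690 minutes, so these 3 values are not measured sizes. In K562, 18 of 44 members differed by more than 3-fold between replicates. Credible intervals at most 4-fold wide were held by 10 and 23 of 44 members in the K562 replicates and by 20 and 25 of 43 in NIH-3T3.

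**Figure D3:**
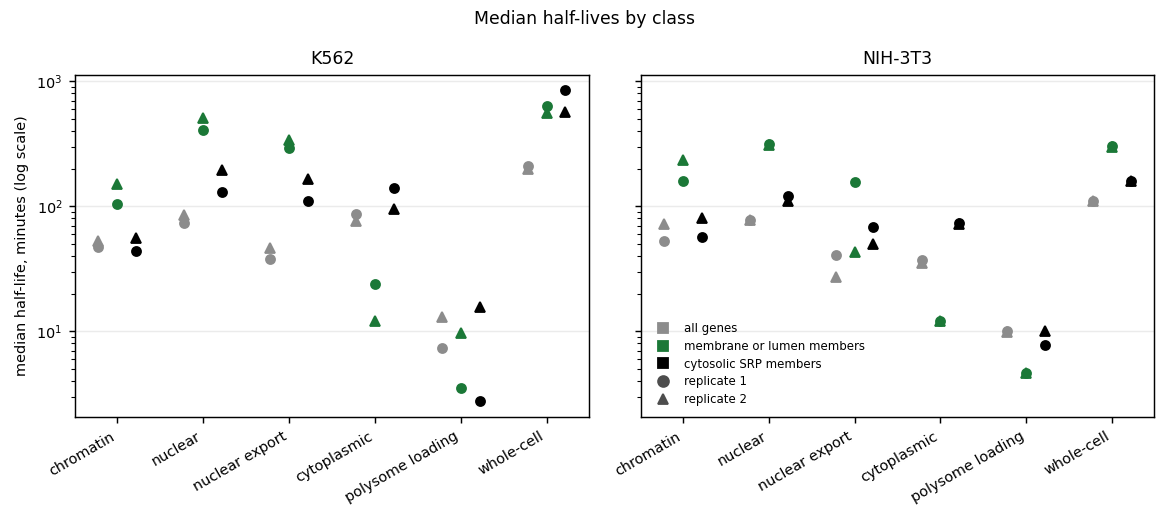
Median half-life in minutes (log scale) of all genes (grey), membrane or lumen members (green) and cytosolic SRP members (black) for the 6 kinds of half-life in both lines, circles for replicate 1 and triangles for replicate 2. Membrane or lumen members lie above all genes on chromatin, in the nucleus and in whole cells and below them in the cytoplasm, and the NIH-3T3 export medians of 155 and 43 minutes stand apart.

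Whole-cell half-lives were long for both classes. In K562, 37 of 38 membrane or lumen members and 5 of 6 SRP members lay above the all-gene median, and medians were 635 and 555 minutes and 850 and 565 minutes, against 210 and 200 minutes for all genes. In NIH-3T3 they were 305 and 300 minutes for membrane or lumen members, 160 minutes in both replicates for SRP members and 110 minutes for all genes. The longest-lived member in K562 was SRP9 (1400 and 1100 minutes) and the shortest-lived DNAJB9 (27 and 26 minutes). In NIH-3T3, Rpn2 was longest (790 and 830 minutes) and Srp9 shortest (27 and 23 minutes).

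For membrane or lumen members the nuclear and the whole-cell half-life were close in length. The median log2 ratio of nuclear to whole-cell half-life was -0.33 in K562 and 0.08 in NIH-3T3, against -2.07 and -0.74 for SRP members and -1.32 and -0.50 for all genes. RPN1, with nuclear values of 700 and 770 minutes, had whole-cell values of 680 and 880 minutes in K562, and HSP90B1, with 630 and 640 minutes, had 620 and 580 minutes. SRP72, with nuclear values of 120 and 180 minutes, had whole-cell values of 850 and 820 minutes. The SRP messages thus outlived their nuclear phase, while those of RPN1 and HSP90B1 did not by much. By credible intervals in K562, whole-cell lay above nuclear for 6 of 6 SRP members in both replicates, and for 28 and 10 of 38 membrane or lumen members. For NIH-3T3 it did for 3 and 5 of 5 and for 4 and 1 of 38, and the intervals of 22 and 33 of the 38 overlapped. The remaining members had a nuclear interval above the whole-cell one, as Ganab did in replicate 1 (510 to 610 against 300 to 370 minutes). Why some nuclear half-lives exceeded those of the whole cell was not tested. Tail-anchored SEC61B (160 and 210 minutes nuclear, 830 and 630 whole-cell) and SEC61G (81 and 140 minutes nuclear, 650 and 400 whole-cell) were placed with SRP on this measure, with median log2 ratios of -2.12 in K562 and -0.88 in NIH-3T3 for the pair.

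**Figure D4:**
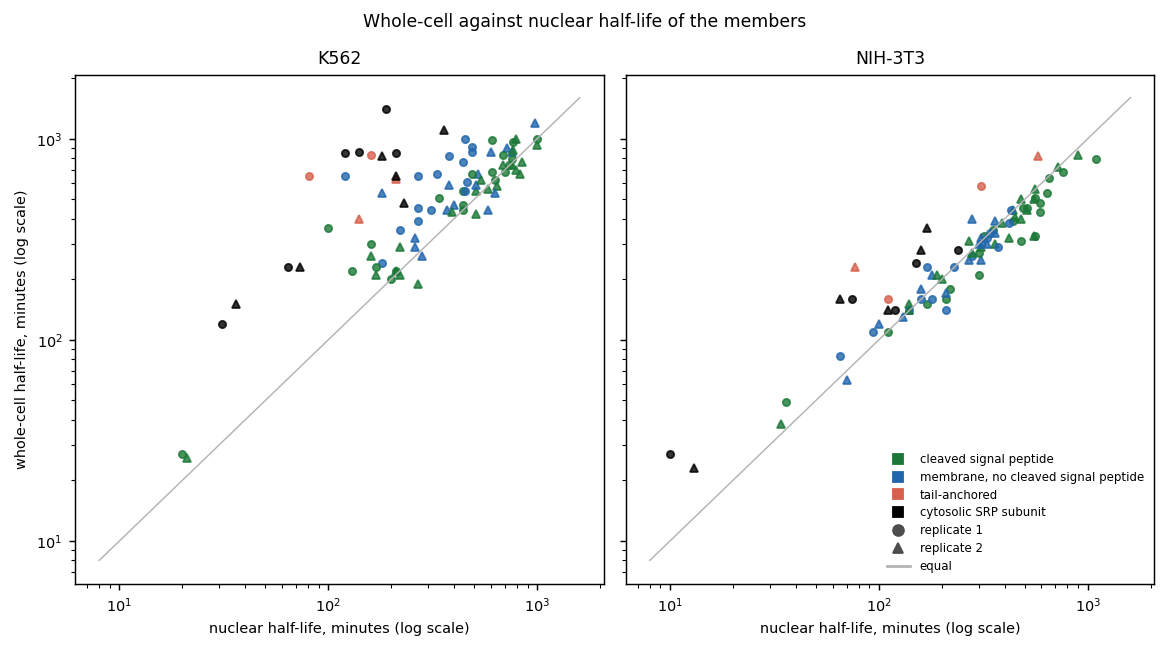
Whole-cell half-life against nuclear half-life in minutes (log scales) for each member in each replicate (circles replicate 1, triangles replicate 2), coloured by targeting class, with the line of equality. Most members with a signal peptide lie along the line, and all SRP and tail-anchored members lie above it in K562 (SRP72 at 120 and 850 minutes in replicate 1).

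The authors' deposited table calls nuclear degradation for 4 of 44 members in K562 (HSPA5, DNAJB11, PDIA3 and PDIA6) and for 7 of 43 in NIH-3T3 (Srp9, Ssr4, Dad1, Stt3b, Calr, Hsp90b1 and Hyou1). Among all assessed genes the call was made for 3.25% of 11409 and 4.36% of 11667. No member had it in both lines. Srp9, Ssr4 and Dad1 were also the mouse members, with Sec11c, Srp19 and Sec61g, whose ratio was below the all-gene median, while the other 4 called in NIH-3T3 had log2 ratios from 4.71 to 7.93. Of the 4 called in K562, HSPA5, PDIA3 and PDIA6 had log2 ratios from 6.92 to 7.86 and DNAJB11 1.14. For Dad1 the deposited 4-compartment Bayes factors were 850 and 15000, but the 3-compartment ones were 2.2 and 0.011.

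Other genes of the pathway gave a range of values. A further 34 membrane or lumen genes were listed under translocation, glycosylation and folding. In K562, 23 of the 34 had a longer nuclear half-life by credible intervals apart in both replicates (24.2% of all genes). Another 2 had a longer cytoplasmic one (26.4%), and the median log2 ratio was 3.09. PPIB, an ER cyclophilin, was highest (480 and 580 minutes against 3.8 and 4 minutes, log2 7.08). PREB was lowest (36 and 40 minutes against 170 minutes in both, log2 -2.16). It is a membrane guanine nucleotide exchange factor and does not itself carry out these steps. In NIH-3T3, 30 of 34 were longer in the nucleus (51.8% of all genes) and 1 in the cytoplasm (5.71%), with a median of 3.96, from -1.89 in Tmem258 to 6.69 in Dnajc10. Of 18 genes of ER-associated degradation and the unfolded protein response, 14 were longer in the nucleus and 1 in the cytoplasm in K562 (median 2.32, from -1.07 in UBE2J1 to 3.75 in SEL1L), and 17 and 0 in NIH-3T3 (median 3.52, from -0.15 in Derl2 to 5.72 in Os9). By that rule the members themselves gave 34 of 38 and 0 in K562 and 34 of 38 and 1 (Ssr4) in NIH-3T3. Cytosolic targeting factors outside SRP, which are made on free ribosomes, also included long nuclear values. Of 10 with values in K562, 5 were longer in the nucleus and 2 in the cytoplasm (median 0.85), from NACA (91 and 130 minutes against 210 and 160 minutes, log2 -0.75) to HSP90AB1, a cytosolic chaperone (420 and 400 minutes against 16 and 15 minutes, log2 4.73). In NIH-3T3, 9 of 11 were longer in the nucleus and 0 in the cytoplasm, with a median of 2.69, from -0.25 in Dnaja1 to 5.36 in Hsp90ab1. A long nuclear and short cytoplasmic half-life was therefore also measured for mRNAs of some cytosolic proteins.

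The lines were then compared by limma on 2 tables against 2, with genes paired by symbol, for the 43 members in both. Tables were fitted separately and lines differ in species, so each count is set beside the background and the shift of all genes. Whole-cell half-lives were longer in K562 for 32 of 43 members (60.2% of 8913 genes) and longer in NIH-3T3 for 3 (5.06%), where all genes had a median difference of 0.84 (log2, K562 minus NIH-3T3) and members 0.82. Of all genes called, 92.3% were longer in K562, and 40.8% with columns centred, where the members' counts were 6 (18.2% of genes) and 12 (26.3%). Cytoplasmic half-lives were longer in K562 for 14 members (53.4% of genes) and in NIH-3T3 for 1 (2.08%), with an all-gene median of 1.11. Centring moved these counts to 1 (9.84%) and 7 (14.0%), and the K562 share of all calls from 96.3% to 41.3%. Nuclear half-lives were longer in K562 for 9 (19.9%) and in NIH-3T3 for 5 (20.0%), and 15 (25.4%) and 6 (24.5%) after centring. Chromatin half-lives were longer in K562 for 4 (10.0%) and in NIH-3T3 for 15 (28.6%), against an all-gene median of -0.35, and 6 (25.8%) and 15 (26.8%) after centring, which moved the K562 share of all calls from 25.9% to 49.1%. The nuclear-to-cytoplasmic ratio was higher in K562 for 3 (4.02%) and in NIH-3T3 for 8 (38.4%), or 42.4% of genes in either direction, against an all-gene median of -1.08. Centring moved these counts to 12 (15.5%) and 4 (14.5%), and the K562 share of all calls from 9.46% to 51.7%. Leaving out either NIH-3T3 replicate removed the calls of all genes in every one of these comparisons, members and others alike. Leaving out a K562 replicate also lowered the number of calls over all genes in each. These losses describe fits with a lone table in a group and are not particular to the members.

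Export and polysome loading gave few calls. Export half-lives were longer in K562 for 4 members (4.36% of genes), with 20 at an unadjusted p under 0.05 (20.5% of genes) and 20 adjusted calls with the replicate block (10.4% of genes). For longer export half-lives in NIH-3T3, limma called 0 members (4.60% of genes), with 2 at an unadjusted p under 0.05 (12.8%). Polysome loading gave 0 members in both directions by limma (0.443% and 0.395% of genes), with 2 at an unadjusted p under 0.05 in the direction of K562 (4.82%) and 1 in that of NIH-3T3 (6.34%).

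SRP9, SEC11C and DAD1 differed most between the lines. SRP9 was longer in K562 on chromatin (70 and 72 against 6.6 and 9.1 minutes, log2 3.20 ± 0.36, adjusted p = 5.31e-11), in the nucleus (190 and 360 against 10 and 13 minutes, 4.52 ± 0.38, adjusted p = 0.0107) and in whole cells (1400 and 1100 against 27 and 23 minutes, 5.64 ± 0.18, adjusted p = 0.0033). Its cytoplasmic values, 200 and 93 against 88 and 91 minutes, did not pass the test (log2 0.61 ± 0.43, adjusted p = 0.287). The limma fit had 74.3 total degrees of freedom for chromatin, against 3.72 for the nucleus and 3.48 for whole cells. Chromatin p-values thus rest mainly on a spread pooled over all genes, and their size cannot be compared with that of the others. SEC11C was longer in K562 on chromatin (log2 2.10), in the nucleus (3.30) and in whole cells (1000 and 1200 against 83 and 63 minutes, 3.92 ± 0.20, adjusted p = 0.0033). DAD1 was longer in K562 on chromatin (log2 1.97), in the nucleus (490 and 720 against 94 and 100 minutes, log2 2.62) and in whole cells (910 and 900 against 110 and 120 minutes, 2.98 ± 0.10), but its cytoplasmic half-life was shorter in K562 (11 and 10 against 130 and 100 minutes, -3.44 ± 0.23, adjusted p = 0.0070). It was the only one of the 43 called shorter in the K562 cytoplasm. Export half-lives of these 3 genes were also longer in K562 (5.34, 3.37 and 2.66), as was that of HYOU1 (3.25).

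Differences in the other direction were led by a few genes. DNAJB11 was shorter in K562 on chromatin (38 and 49 against 200 and 320 minutes, log2 -2.55 ± 0.37), in the nucleus (-1.26 ± 0.18) and in whole cells (-0.59 ± 0.12). On chromatin P4HB (-2.07) and SSR2 (-1.98) followed, in the nucleus SPCS1 (-1.07) and SRP19 (-1.05), and in whole cells DNAJB9 (-0.70) and SSR2 (-0.61). UGGT1 (48 and 45 against 8.4 and 5.3 minutes, log2 2.80 ± 0.30), SPCS1 (2.52) and SPCS2 (2.45) had the largest increases of the cytoplasmic half-life in K562. Human pseudogene copies were counted in GENCODE by name only, as the symbol followed by P and a number. They were found for 10 of the 44 human genes, with 6 for OSTC, 1 for SRP9 and none for DAD1 or SEC11C. Copies under other names and copies in the mouse genome were not searched, so a count of none does not clear a gene. How reads shared with such copies were assigned is not given in the sources used here, so values of these 10 genes are less certain.

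**Figure D5:**
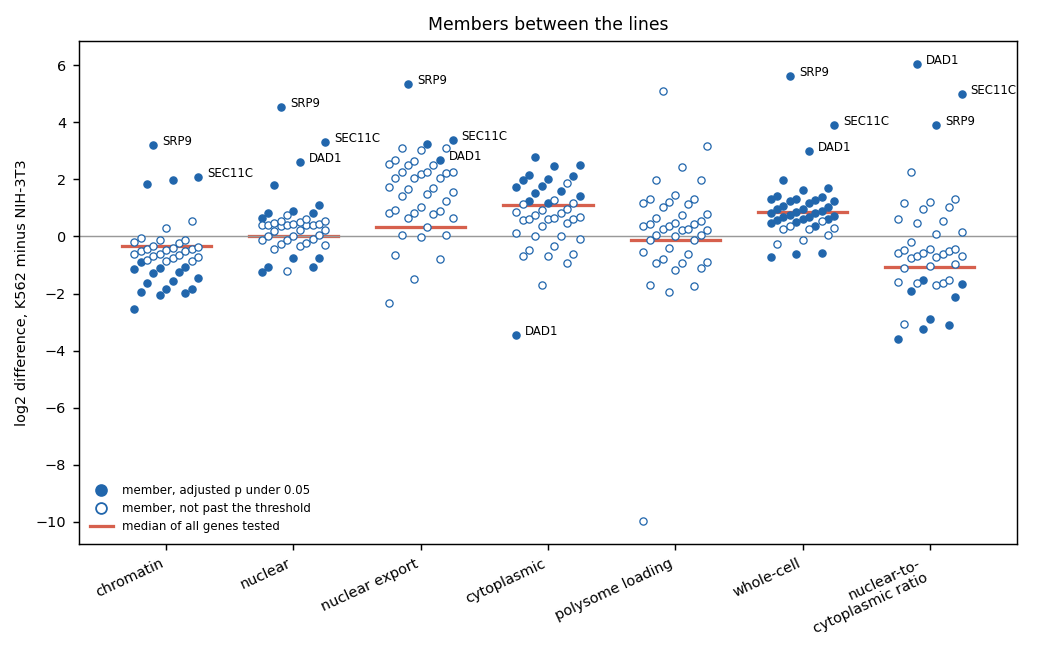
Log2 difference between lines (K562 minus NIH-3T3) for the 43 members in each kind of half-life and in the nuclear-to-cytoplasmic ratio, filled where the limma adjusted p was under 0.05, with the median of all genes tested as a bar. DAD1 (6.06) and SEC11C (4.99) in the ratio lie farthest above their bar of -1.08, and SRP9 (5.64) is the highest point in whole cells. The lowest polysome point, SRP9, rests on NIH-3T3 values at the upper bound of 6900 minutes.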

How the data were processed

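RNA was labelled with 4-thiouridine, fractionated, recoded by TimeLapse chemistry and made into libraries with a stranded total RNA kit, per the labels' protocols. The submitters' processing notes name cutadapt 2.5, STAR 2.7.0a and the hg38 and mm10 builds. The authors deposited 4 tables, 1 per line and replicate, with half-lives in minutes (another unit, an absolute time with no normalization between tables), their posterior modes, means and 95% credible intervals, Bayes factors and a nuclear degradation call. Values have 2 significant digits and an upper bound of 6900 minutes. They give no read counts. Depth is therefore unknown, and no interval of counting error is printed. Credible intervals cover the fit of 1 time course only. The labels do not say whether replicates are separate cultures, so p-values measure the spread between tables, which may be technical. Whole-cell half-lives in both replicates were listed for 8 of 8 K562 markers and 3 of 8 fibroblast markers in the K562 tables, and for 1 of 8 and 8 of 8 in the NIH-3T3 tables.

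Log2 posterior modes were compared with limma 3.58.1 in R 4.3.3, two-sided, with no pseudocount, filter or centring and Benjamini-Hochberg adjustment over all genes tested (adjusted p under 0.05). Nuclear and cytoplasmic half-life were compared within a line and each half-life and the nuclear-to-cytoplasmic ratio between lines (14100 symbols paired ignoring case). The script was tested on simulated data. All members had all 6 half-lives in both replicates, and none was dropped. Nuclear and cytoplasmic values of a replicate come from 1 table and are paired in that sense. Their deviations from the group means correlated at -0.17 in K562 and -0.20 in NIH-3T3 over genes. Medians and counts over members are descriptions without a test. The members, their classes, the pathway lists and the rule for named genes were chosen with earlier results of these data known. The rule names all SRP members, the highest and lowest ratio of each role, the longest and shortest half-life of each kind, and the 3 largest called differences between lines in each direction. Coding starts came from GENCODE version 29, 1 transcript per gene, the principal isoform with the longest coding sequence. No mouse sequence was used here. Alternatives were the posterior mean, centred columns, intervals at most 4-fold wide, a trend in limma, a replicate block, credible intervals apart, and leaving out each replicate. The crossed block and the value without SRP9 were added after seeing the data.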

Additional observations from a re-analysis of the deposited data

Results flagged for a closer look

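The ratio of nuclear to cytoplasmic half-life differed between the lines, by limma on the ratio itself, for 11 of 43 members, where the call was made for 42.4% of 9087 genes. With columns centred on their medians the counts went from 3 higher in K562 and 8 higher in NIH-3T3 to 12 and 4. Values are log2 differences, K562 minus NIH-3T3, beside a median of -1.08 for all genes. The ratio was higher in K562 for DAD1 (6.06), SEC11C (4.99) and SRP9 (3.91). It was higher in NIH-3T3 for SPCS1 (-3.59), DNAJB11 (-3.25), UGGT1 (-3.10), SRP68 (-2.90), SSR3 (-2.12), DDOST (-1.90), SRP72 (-1.68) and SRP19 (-1.53). These calls were lost when either NIH-3T3 replicate was left out, as were those of all other genes. The loss is therefore not particular to these members. Groups of 2 tables are too small to test for a replicate that stands apart.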

How the results depend on the processing

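Within lines, the count of membrane or lumen members with a longer nuclear half-life stayed within 1.5 times of 34 of 38 under every alternative run (26 to 35), the lowest where narrow intervals left fewer members to test. Other counts moved. In K562, longer cytoplasmic half-lives were found for 2 of 6 SRP members by credible intervals apart (26.4% of genes). The crossed block, added after seeing the data, gave 2 SRP members in each direction (3167 and 3378 of 12276 genes). With 1 replicate left out (credible intervals, no test), K562 gave 0 to 3 membrane or lumen members longer in the cytoplasm, 1 to 3 SRP members longer in the nucleus and 2 to 3 longer in the cytoplasm, and NIH-3T3 gave 1 to 2 membrane or lumen members longer in the cytoplasm. For these counts with 1 replicate left out, the share of all genes was not computed, so they show nothing particular to the members. Centring NIH-3T3 columns gave 3 membrane or lumen and 2 SRP members longer in the cytoplasm (30.2% of genes). It gave 1 SRP member longer in the nucleus (27.2%) and turned SRP72 to -0.030.

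The difference of median log2 ratios between membrane or lumen and SRP members, 4.15 in K562 and 3.39 in NIH-3T3, was 5.12 and 3.63 with posterior means and 5.16 and 4.86 for lumen members alone. In NIH-3T3 it was 2.94 for membrane members alone, 2.87 without SRP9, and 3.34 to 3.68 with 1 replicate left out. The posterior mean lay outside its own interval for up to 9 of 44 members (K562 nuclear, replicate 2).

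Between lines, counts are given as members longer or higher in K562 and then in NIH-3T3. Centred columns gave 15 for the nucleus in K562 (25.4% of genes) and 11 and 2 for export (909 and 1396 of 9135 genes). They gave 1 and 7 for the cytoplasm (9.84% and 14.0%) and 6 and 12 for whole cells (18.2% and 26.3%). For the ratio they gave 12 and 4 (15.5% and 14.5%). Posterior means gave 5 for the nucleus in K562 (1619 of 9466 genes) and 1 for export in NIH-3T3 (475 of 9135 genes). Narrow intervals gave 0 for the cytoplasm in NIH-3T3 (198 of 7480 genes). The replicate block gave 5 and 3 for the nucleus (1146 and 1190 of 9466 genes) and 20 and 1 for export (948 and 652 of 9135 genes). It moved no other count by over 1.5 times. Same-numbered replicates of the lines share only a number (correlations of deviations -0.05 to 0.02). With 1 replicate left out, where the lone table is assumed to vary like the other line's pair, the counts ran from 0 to 4 and 0 to 7 for chromatin, 0 to 0 for the nucleus and export, 0 to 6 and 0 to 1 for the cytoplasm, 0 to 21 and 0 to 1 for whole cells and 0 to 3 and 0 to 6 for the ratio. Calls over all genes also fell in each of these fits with a lone table in a group. The member counts with 1 replicate left out therefore show nothing particular to the members. Fewer tables left fewer degrees of freedom, and the causes of the other shifts were not tested. Cytoplasmic and loading half-lives under the first labelling time of 15 minutes are limited by the times sampled. So are nuclear, chromatin, export and whole-cell half-lives above the last labelling time of 120 minutes.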
